A study of Mus musculus with 16 samples.

Results

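Mouse macrophages given extracellular vesicles (EVs) from the serum of mice with concanavalin A (Con A) hepatitis were compared with macrophages that received phosphate-buffered saline (PBS), by sequencing of their microRNAs (miRNAs). The comparison took 6 of the 16 libraries of the series, 3 per group (those of cells given the EVs are called recipient libraries), and all 941 miRNA names of the count table, of which 692 had reads here and 229 passed the filter on low counts and were tested. Both groups were RAW264.7 cells, a macrophage line from a tumour that a virus induced in a male BALB/c mouse. They were kept 8 h in medium free of other EVs, with PBS or with 6e9 particles of serum Con A EVs per mL, and then with Con A, at a dose not given in the sources used here, for 16 h. The EVs came from serum that female BALB/c mice, 8 to 9 weeks old, gave 9 h after 1 intravenous dose of Con A at 15 mg/kg. The series holds no recipients of EVs from saline-injected mice, so effects of Con A hepatitis on the EVs and effects of serum EVs as such cannot be told apart. Further libraries of the series are used only as a reference: cells that received EVs from RAW264.7 cultures kept 24 h with Con A at 25 µg/mL (RAW Con A EVs) or with saline (RAW saline EVs), 3 libraries each and also given Con A afterwards, and 1 library of each EV preparation. Whether the 3 libraries of a group are separate cultures is not stated in the labels, and the p-values cover no more than the spread between them.

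A miRNA is a short RNA that guides an Argonaute protein to messenger RNAs and lowers their translation and stability, and its seed, bases 2 to 8, sets most of the pairing. Each hairpin precursor can yield a 5p and a 3p strand, and hairpins encoded next to each other are often cut from 1 transcript. Con A, a lectin of the jack bean, stimulates T cells and, injected into mice, causes a hepatitis in which macrophages take part. EVs are membrane-enclosed particles that carry RNA between cells, and serum EVs can hold miRNAs of hepatocytes and blood cells. In macrophages, inflammatory signals induce miR-155, which represses brakes on cytokine signalling such as SOCS1 and SHIP1, and miR-146a, which restrains NF-κB signalling.

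The mature sequences of the miRNAs on which the results turn are given first, from RefSeq on the build GRCm38.p6, with the seed in capitals. Of the 941 names 803 matched this table, as did 207 of the 229 tested and 45 of the 49 called. The first set fell in recipients of serum Con A EVs, and it shows the arms of 1 hairpin (miR-155, miR-22), neighbours of 1 gene cluster (miR-322 to miR-450b), a pair with a common seed (miR-221-3p and miR-222-3p, as miR-7a-5p and miR-7b-5p) and a pair with a common seed and different ends (miR-351-5p and miR-125b-5p).
miR-155-5p: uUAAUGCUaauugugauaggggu
miR-155-3p: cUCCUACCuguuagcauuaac
miR-192-5p: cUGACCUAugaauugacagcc
miR-194-5p: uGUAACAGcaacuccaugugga
miR-450b-5p: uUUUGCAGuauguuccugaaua
miR-450a-5p: uUUUGCGAuguguuccuaauau
miR-542-3p: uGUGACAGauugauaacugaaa
miR-503-5p: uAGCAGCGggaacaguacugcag
miR-322-3p: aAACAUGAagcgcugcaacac
miR-351-5p: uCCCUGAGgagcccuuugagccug
miR-125b-5p: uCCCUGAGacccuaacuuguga
miR-221-3p: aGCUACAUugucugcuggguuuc
miR-222-3p: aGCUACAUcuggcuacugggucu
miR-22-5p: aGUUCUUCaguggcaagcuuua
miR-22-3p: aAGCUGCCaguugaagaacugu
miR-7a-5p: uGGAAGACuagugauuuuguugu
miR-7b-5p: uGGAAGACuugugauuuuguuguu

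The second set rose, and miR-148b-3p is shown beside miR-148a-3p because it has the same seed and did not pass the test. let-7a-1-3p and let-7c-2-3p have the same sequence, so their reads cannot be told apart.
miR-148a-3p: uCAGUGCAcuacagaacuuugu
miR-148b-3p: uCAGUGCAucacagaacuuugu
miR-451a: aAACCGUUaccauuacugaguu
miR-126a-3p: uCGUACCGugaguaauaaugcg
miR-130b-5p: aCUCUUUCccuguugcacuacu
miR-301b-5p: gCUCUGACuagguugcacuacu
miR-17-5p: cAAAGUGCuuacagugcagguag
miR-20a-5p: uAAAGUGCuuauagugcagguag
miR-106b-5p: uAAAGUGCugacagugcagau
let-7a-1-3p: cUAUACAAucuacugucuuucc
let-7c-2-3p: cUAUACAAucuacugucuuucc

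Of the 229 tested miRNAs, 49 (21.4%) passed edgeR's quasi-likelihood test at an adjusted p of 0.05, 18 of them higher (7.86%) and 31 lower (13.5%) in recipients of serum Con A EVs. Of the tested miRNAs 24 did not pass the filter without the recipient libraries, and miR-451a and miR-92a-1-5p, both among the rises, are of these. The split was 13 higher and 37 lower with upper-quartile scaling, and 33 and 21 with library size alone. Changes of at least 2-fold were 4 rises (1.75%) and 9 falls (3.93%), with a median of 18.2 CPM in PBS cells for the rises and 241 CPM for the falls. The PBS level is also the base of the fold change, so these medians are not independent of its direction. In recipients the means were 67.4 to 282 CPM for the 4 rises, miR-451a among them, and 39.3 to 237 CPM for the 9 falls. CPM is a miRNA's reads scaled to a common total of miRNA reads for every library, here with TMM factors. Values given as -fold are linear, and each standard error (SE) of the fit belongs to the log2 change, also where it stands beside a linear fold. The 12 rises and 12 falls under 1.41-fold had higher PBS medians, 1024 and 3002 CPM, over a range of 176 to 263146 CPM that overlaps that of the 2-fold calls. Over all tested miRNAs the median log2 change was 0.01, and 135 lay within 0.25 of 0. The libraries held 222375 to 347877 miRNA reads, and the tested miRNAs took 99.8% of the reads of each. On the first principal component of the 12 cell libraries, those given serum Con A EVs lay at 6.39 to 6.64 and all others between −4.67 and −0.87. The groups did not overlap for 83 miRNAs (36.2%).

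**Figure D1:**
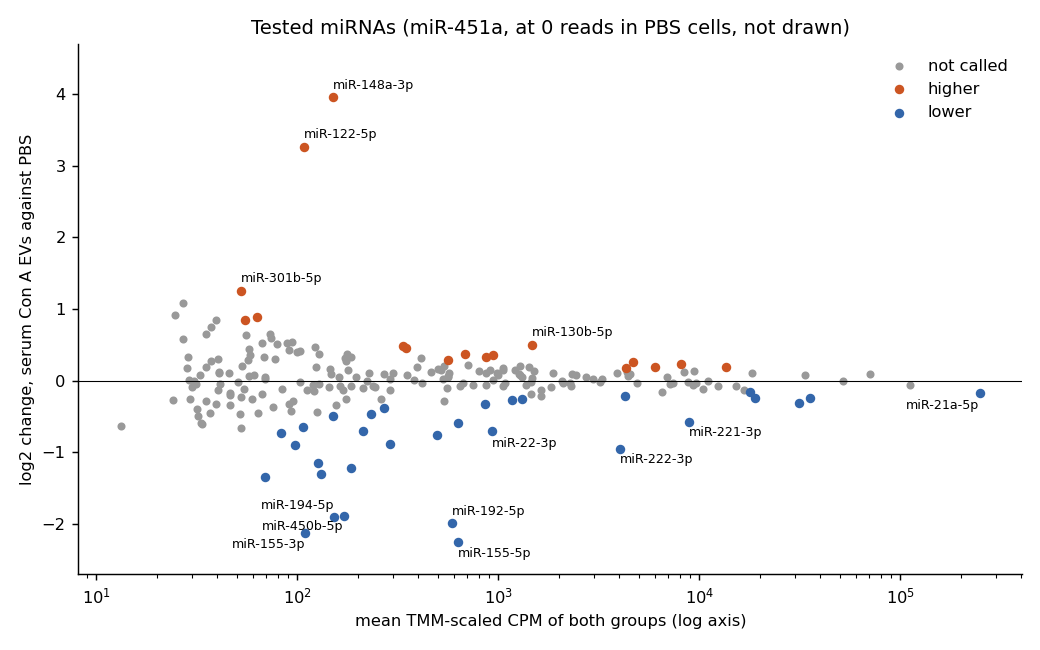
Log2 change in recipients of serum Con A EVs against PBS cells (y axis) by mean TMM-scaled CPM of both groups (x axis, log scale), 1 point per tested miRNA, with calls at an adjusted p of 0.05 in colour. The falls of miR-155, miR-192-5p, miR-194-5p and miR-450b-5p and the rises of miR-148a-3p and miR-122-5p stand apart from the band around 0, and miR-451a, at 0 reads in PBS cells, is not drawn.

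miR-155 fell on both arms of its hairpin. In PBS libraries 1, 2 and 3, miR-155-5p, the main strand, stood at 966, 981 and 1167 CPM, and in the libraries of recipients of serum Con A EVs at 231, 215 and 204 CPM. The groups were far apart, with all 3 recipients of EVs close to each other and well under the lowest PBS library. The fall was 4.78-fold, a log2 change of −2.26 with SE 0.11 (edgeR's test, adjusted p = 2.54e-18). miR-155-3p, the rarer strand, stood at 147.98, 155 and 226 CPM in PBS libraries and at 28.9, 52.9 and 42.7 CPM in the others. These did not overlap either, and the fall was 4.38-fold (SE 0.24, adjusted p = 1.13e-08). The ratio of 5p to 3p reads was 5.15 to 6.53 in PBS libraries and 4.06 to 8.00 in recipient libraries, so the ranges overlapped, and the test of unequal change of the arms gave an unadjusted p of 0.687 in edgeR's fit. In these bulk libraries, fewer cells that make a miRNA and less of it per cell cannot be told apart.

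The inflammation-induced miRNAs moved both ways. Of 14 listed, 8 were tested and 4 called (50%, beside 21.4% of all tested miRNAs), with 3 falls (both miR-155 arms and miR-21a-5p), 1 rise and a median log2 change of −0.02, beside 0.01 for all tested miRNAs. miR-146a-5p stood at 18280.3, 17270.5 and 17145 CPM in PBS libraries and at 19894, 18526 and 18407 CPM in recipient libraries. Its groups did not overlap, but the difference did not pass the test (log2 change 0.11, adjusted p = 0.270 by edgeR's test). Against cells given RAW Con A or RAW saline EVs it was lower, by log2 differences of −0.81 and −0.71 (adjusted p = 1.17e-11 and 1.11e-10). The related miR-146b-5p had a log2 change of 0.07 (adjusted p = 0.467) and miR-125a-5p one of 0.10 (adjusted p = 0.389). miR-9-5p, a neuronal miRNA that bacterial lipopolysaccharide also induces in human monocytes, rose from 4239, 4363 and 4173 CPM to 5120, 4967 and 5164 CPM. That rise was 1.19-fold (adjusted p = 0.00193), and it held without any 1 library. miR-21a-3p, the rare arm of miR-21a, had a log2 change of −0.12 (adjusted p = 0.825). Members of the list too scarce to test included miR-132-3p, with 10 reads over the PBS libraries and 15 over the others, and miR-147-3p, with 3 and 6. miR-187-3p had 0 reads.

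miR-192-5p and miR-194-5p, abundant in liver and gut and known in human cells as targets of p53, fell together. For miR-192-5p the PBS libraries held 849, 852 and 1104 CPM and the recipient libraries 229, 245 and 237 CPM. The 3 recipients of EVs lay close to each other, far under the PBS range, at a 3.98-fold fall (SE 0.16 on the log2 scale, adjusted p = 3.21e-12). miR-194-5p went from 200.2, 223 and 299 CPM to 76.2, 56.2 and 59.2 CPM, again with no overlap. Its fall was 3.75-fold (SE 0.22, adjusted p = 1.13e-08 by edgeR's test). miR-215-5p, which has the seed of miR-192-5p, was too scarce to test, with 18 reads over the PBS libraries and 3 over the others. miR-194-2-3p, the other arm of the miR-194 hairpin beside Mir192, had 3, 5 and 2 reads in PBS libraries and 0 in each of the others.

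A run of miRNA genes on chromosome X fell together. The genes Mir322, Mir503, Mir351, Mir542, Mir450-2, Mir450-1 and Mir450b lie in this 5′ to 3′ order on 1 strand, and their miRNAs, which restrain the cell cycle (miR-503-5p acts on cyclin D1) or have less well-known roles (miR-450a, miR-450b), had 8 strands tested, of which 6 fell and 0 rose, beside 13.5% and 7.86% of all tested miRNAs. The median log2 change was −1.01, and the summed level of the cluster was 1776 to 2315 CPM in PBS libraries and 995 to 1085 CPM in recipients of serum Con A EVs. miR-450b-5p stood at 178, 288 and 333 CPM in PBS libraries and at 76.2, 62.8 and 82.2 CPM in the others. No recipient of EVs reached the lowest PBS library, and the fall was 3.69-fold (SE 0.21, adjusted p = 1.13e-08). miR-450a-5p, made from both Mir450 genes, went from 183, 191 and 189 CPM to 78.8, 59.5 and 88.7 CPM. This fall was 2.47-fold (SE 0.19, adjusted p = 1.42e-06). In the case of miR-503-5p, at 192, 272 and 302 CPM against 92.0, 126 and 122 CPM, it was 2.33-fold (SE 0.21, adjusted p = 1.88e-05). In that of miR-542-3p, at 135, 217 and 169.8 CPM against 97.2, 62.8 and 75.6 CPM, it was 2.21-fold (SE 0.20, adjusted p = 4.00e-05). In neither did the groups overlap.

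The other strands of the cluster had smaller changes. miR-351-5p, with the seed of miR-125b-5p, went from 614, 612 and 645 CPM to 384, 357 and 362 CPM. Both groups were tight, and the fall was 1.69-fold (SE 0.11, adjusted p = 1.42e-06). miR-322-3p went from 300.3, 385 and 440.3 CPM to 216, 172 and 230.1 CPM, without overlap and 1.84-fold lower (SE 0.15, adjusted p = 1.82e-05). The other arm of that hairpin, miR-322-5p, a member of the miR-15 and miR-16 seed family, stood at 82.7, 110.1 and 126 CPM against 86.7, 86.0 and 69.0 CPM. These overlapped, and its log2 change of −0.42 did not pass (SE 0.22, adjusted p = 0.186). miR-503-3p, at 47.9, 64.8 and 66.0 CPM against 34.2, 49.6 and 49.3 CPM, overlapped too (log2 change −0.47, adjusted p = 0.303 by edgeR's test). Of the strands too scarce to test, miR-450b-3p had 25 reads over the PBS libraries and 10 over the others, and miR-450a-1-3p 8 and 2. In the EVs given to the cells these miRNAs were scarce: miR-322-3p had 13 reads, miR-503-5p 7, miR-351-5p 4, miR-542-3p 3, miR-450a-5p 1 and miR-450b-5p 0.

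**Figure D2:**
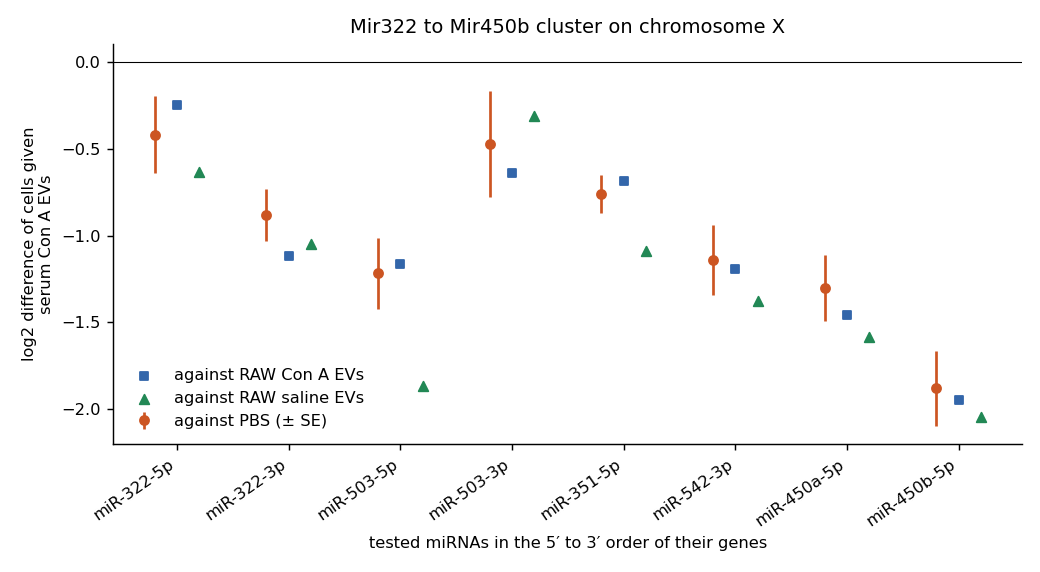
Log2 difference of recipients of serum Con A EVs (y axis) for the 8 tested miRNAs of the Mir322 to Mir450b cluster in gene order (x axis), against PBS cells with the SE of the fit as bars and against cells given RAW Con A or RAW saline EVs. Against PBS the values run from −0.42 for miR-322-5p to −1.88 for miR-450b-5p, and the 3 contrasts share the recipient libraries.

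miR-221 and miR-222, which repress the cell cycle inhibitor p27 and lie side by side on chromosome X, fell on all 4 strands (median log2 change −0.66). miR-222-3p stood at 5036, 6148 and 4777 CPM in PBS libraries and at 2605, 2917 and 2748 CPM in recipients of serum Con A EVs. The lowest PBS library was well over the highest of the others, at a 1.93-fold fall (SE 0.08, adjusted p = 2.17e-11). miR-221-3p, with the same seed, went from 10450.2, 11181 and 10397 CPM to 6957, 6882 and 7639 CPM. Its fall was smaller, 1.49-fold (SE 0.06, adjusted p = 3.52e-09 by edgeR's test). The passenger strand miR-221-5p fell with it, from 892, 719 and 679 CPM to 541, 509 and 450.3 CPM, 1.50-fold (SE 0.10, adjusted p = 4.07e-05). The values of miR-222-5p were 118, 97.2 and 94.3 CPM against 47.3, 66.1 and 72.3 CPM, without overlap. Its 1.67-fold fall (adjusted p = 0.0213) did not pass without PBS library 1 (adjusted p = 0.0756), without recipient library 1 (0.140) or with DESeq2 (0.248).

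On chromosome X as a whole, 10 of the 25 tested miRNAs that RefSeq places only there fell and 0 rose, beside 13.5% and 7.86% of all tested miRNAs, with a median log2 change of −0.42. These 10 were the 6 strands of the miR-322 to miR-450b cluster, miR-221-5p, miR-221-3p, miR-222-3p and miR-361-5p. miR-361-5p went from 296, 275 and 236 CPM to 176, 172 and 233 CPM, a 1.38-fold fall with its highest recipient library just under the lowest PBS library. Its call (adjusted p = 0.0246) ended without PBS library 1 or 2 (0.0829 and 0.0826) and without recipient library 1 or 2 (0.121 and 0.109). It also ended with DESeq2 (0.158) and with library size alone (0.0639).

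miR-22, which rises when myeloid cells differentiate, fell on both arms as well. miR-22-5p went from 104, 107 and 84.9 CPM in PBS libraries to 28.9, 39.7 and 49.3 CPM in the others. The highest recipient of EVs lay under the lowest PBS library, and the fall was 2.53-fold (SE 0.28, adjusted p = 5.12e-04). miR-22-3p, the main strand, went from 1097, 1176 and 1176 CPM to 615, 721 and 792 CPM. Its fall was 1.63-fold (SE 0.10, adjusted p = 4.89e-07 by edgeR's test). The difference between the arms had an unadjusted p of 0.0289 and an adjusted p of 0.329 over the 57 hairpins tested.

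Smaller falls were seen in miR-671 and miR-27b. miR-671-5p, which in human cells directs cleavage of the circular RNA CDR1as, went from 161, 117 and 107 CPM to 71.0, 56.2 and 72.3 CPM, 1.87-fold lower without overlap (adjusted p = 0.00281). Its partner miR-671-3p fell 1.56-fold (adjusted p = 0.0356). That call ended without PBS library 1 or 3 (0.0899 and 0.135) and without recipient library 1 or 2 (0.213 and 0.0831). It also ended with DESeq2 (0.271) and with library size alone (0.0642). miR-27b-3p, which represses the nuclear receptor PPARγ, is among the 5 most abundant miRNAs of these cells, at 36743, 38493 and 39681 CPM in PBS libraries and 30733, 33824 and 32797 CPM in the others. It fell 1.18-fold and its rare arm miR-27b-5p, from 279, 279 and 233 to 152.4, 162 and 168 CPM, fell 1.63-fold (adjusted p = 0.00143 and 0.00443 by edgeR's test). Of the 10 tested strands of the miR-23, miR-27 and miR-24 clusters, 3 fell and 0 rose, with a median of −0.15, and their share called (30%) was near that of all tested miRNAs (21.4%). The third was miR-23b-3p, 1.26-fold lower (adjusted p = 0.0103), whose groups overlapped and whose call ended without PBS library 2 or 3 (0.0558 and 0.0857) or recipient library 1 (0.112). Its call also ended with library size alone (0.0642).

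miR-7a-5p and miR-7b-5p, which act on growth factor signalling and bind the circular RNA Cdr1as, had log2 changes of −0.31 and −0.25. In PBS libraries miR-7a-5p stood at 35425, 33576 and 34649 CPM, and at 26714, 26959 and 30039 CPM in recipients of serum Con A EVs, without overlap (adjusted p = 0.00283). miR-7b-5p was at 20339, 20367 and 20891 CPM against 16514, 17196 and 18219 CPM. Its call (adjusted p = 0.0111) ended without PBS library 3 (0.0541) or recipient library 1 (0.0751). The sequences are close enough to share reads, so these are not independent measurements.

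Of the most abundant miRNAs, the oncogenic miR-21a-5p held 254453, 270935 and 264050.0 CPM in PBS libraries and 219195, 239632 and 239510.3 CPM in recipients of serum Con A EVs. The groups did not overlap, but the 1.13-fold fall (SE 0.06, adjusted p = 0.0283) ended without PBS library 2 (0.0993), PBS library 3 (0.0837) or recipient library 1 (0.139). With library size alone this fall did not pass either (adjusted p = 0.0747 by edgeR's test). The growth-restraining miR-99a-5p stood at 114330 ± 2763 CPM in PBS cells and 109659 ± 6246 CPM in the others (mean ± SD, n = 3 and 3), a log2 difference of −0.06 whose sign turned with library size alone. let-7i-5p, of a family that favours differentiation, had means of 68022 ± 1756 and 72860.0 ± 3006 CPM (log2 difference 0.10, adjusted p = 0.199 by edgeR's test). It passed with library size alone (0.18, adjusted p = 0.00639). let-7f-5p was at 52190.2 ± 1919 and 52153 ± 2112 CPM (adjusted p = 0.997). Of the 10 tested let-7 guide strands only let-7c-5p passed, 1.12-fold lower (adjusted p = 0.0419), and its call ended without any 1 of the 6 libraries, at adjusted p of 0.0578 to 0.171. The call of let-7c-5p also ended with library size alone (0.331).

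**Figure D3:**
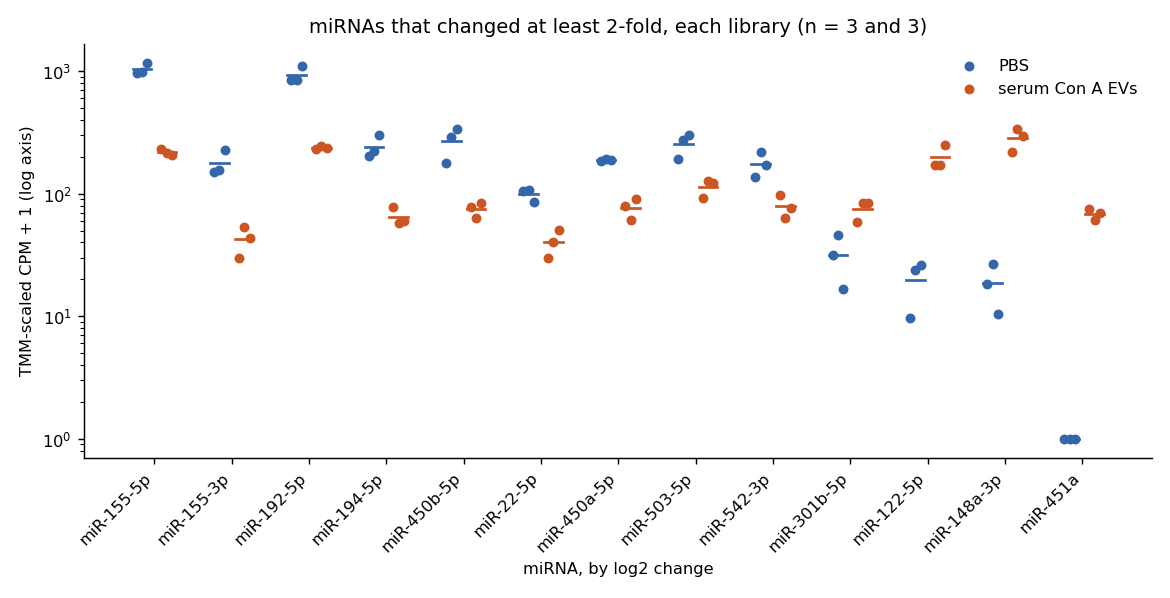
TMM-scaled CPM plus 1 (y axis, log scale) in each library for the 13 miRNAs that passed at 2-fold or more, ordered by log2 change (x axis), with bars at the group means. PBS and recipient libraries are separate for each miRNA drawn, and miR-451a is at 0 reads in all 3 PBS libraries.

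The rises were led by miRNAs of liver and blood. miR-148a-3p, abundant in hepatocytes, stood at 17.4, 25.9 and 9.43 CPM in PBS libraries and at 218, 334 and 293 CPM in recipients of serum Con A EVs. The highest PBS library was far under the lowest recipient library, and the rise was 15.5-fold (SE 0.31, adjusted p = 2.70e-12). miR-122-5p, which makes up most of the miRNA of hepatocytes, went from 8.70, 22.7 and 25.2 CPM to 171, 169 and 249.8 CPM. Its rise was 9.64-fold (SE 0.30, adjusted p = 6.99e-11 by edgeR's test). The opposite arm, miR-122-3p, had 0 reads in all 6 libraries.

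miR-451a, an erythroid miRNA cut by Argonaute 2 in place of Dicer, had 0 reads in each PBS library and 28, 18 and 21 reads in recipients of serum Con A EVs. With a floor of 3 reads over the PBS group this was at least 19.4-fold higher. It did not pass the filter without the recipient libraries, so it was tested through them alone and its call is given as a description. miR-486a-5p and miR-486b-5p, also of red cells and near-identical in sequence, so that they share reads, were too scarce to test. Each had 0 reads over the PBS libraries, against 8, 6 and 3 reads and 9, 5 and 5 reads in the others, at least 4.92-fold and 5.50-fold higher. A count of 0 allows up to 9.71 to 13.5 CPM in a PBS library, and these floors cover counting error only.

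miR-148a-3p moved without its family. miR-148b-3p, named after its values were seen, has the same seed and held 2820.4, 3025 and 3000.1 CPM in PBS libraries and 2878, 3181 and 2915 CPM in the others. Those groups overlapped. The family member miR-152-3p had 4 reads over the PBS libraries and 3 over the others. The summed level of the 3 strands with this seed was 2846 to 3054 CPM in PBS libraries and 3099 to 3515 CPM in recipients of serum Con A EVs, and miR-148a-3p made up 0.313% to 0.848% and 7.04% to 9.50% of it.

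The endothelial miR-126a-3p, encoded in an intron of Egfl7, rose from 588, 577 and 613 CPM to 778, 741 and 792 CPM. Every recipient library was over every PBS library, at a 1.30-fold rise (SE 0.09, adjusted p = 0.00271). miR-130b-5p went from 1402, 1095 and 1157 CPM to 1695, 1581 and 1851 CPM, also without overlap and 1.41-fold higher (SE 0.08, adjusted p = 1.82e-05). Its neighbour on chromosome 16, miR-301b-5p, stood at 30.5, 45.3 and 15.7 CPM against 57.8, 82.7 and 82.2 CPM. The 2.39-fold rise (adjusted p = 0.00283 by edgeR's test) did not pass without PBS library 3 (0.0541) or with DESeq2 (0.0675). The related miR-301a-5p had a log2 change of 0.54 that did not pass (adjusted p = 0.126), and passed without PBS library 1 (0.0208) or recipient library 3 (0.0440). Of the 5 tested strands of the miR-130 and miR-301 family, 2 rose and 0 fell, beside 7.86% and 13.5% of all tested miRNAs.

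The miR-17 to miR-92a and miR-106b to miR-25 clusters, transcribed in dividing cells, held 6 rises and 0 falls among 14 tested strands, with medians of 0.19 and 0.29, beside 7.86% higher and 13.5% lower of all tested miRNAs. The 6 rises include miR-92a-1-5p, which did not pass the filter once the recipient libraries were left out. miR-17-5p, a repressor of cell cycle inhibitors, rose from 7229, 7391 and 7692 CPM to 8642, 8949 and 8760 CPM, 1.18-fold (SE 0.06, adjusted p = 0.00143), and held without any 1 library. miR-20a-5p, with the same seed, was 1.14-fold higher without overlap (adjusted p = 0.00882), but not called without PBS library 2 (0.0892) or with upper-quartile scaling (0.125). The scarce miR-92a-1-5p, which did not pass the filter without the recipient libraries, stood at 52.2, 45.3 and 37.7 CPM against 103, 69.4 and 72.3 CPM. Its 1.86-fold rise is therefore given as a description. The call (adjusted p = 0.0130 by edgeR's test) ended without PBS library 3 (0.0839), recipient library 1 (0.138) or with DESeq2 (0.331). In the cluster within Mcm7, miR-106b-3p rose 1.26-fold (adjusted p = 0.00463 by edgeR's test, 0.0541 without PBS library 3 and 0.0613 with DESeq2). miR-106b-5p and miR-25-3p rose 1.23-fold and 1.13-fold (both adjusted p = 0.0423). The call of miR-106b-5p held only without recipient library 1, and otherwise gave 0.0775 to 0.244 without 1 library, while that of miR-25-3p ended without PBS library 2 (0.234), PBS library 3 (0.0919) or recipient library 1 (0.280). With upper-quartile scaling (0.132 and 0.254) or DESeq2 (0.288 and 0.166) neither passed.

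Among the let-7 hairpins, 2 of 6 tested passenger strands rose and 0 fell (median 0.26), beside 0 rises and 1 fall of 10 guide strands, and 21.4% of all tested miRNAs were called. let-7a-1-3p and let-7c-2-3p stood at 283 to 300.3 CPM and 252 to 304 CPM in PBS libraries, and at 354 to 431 CPM and 341 to 423 CPM in the others. Neither overlapped, and both rose, 1.37-fold and 1.40-fold (adjusted p = 0.00677 and 0.00407 by edgeR's test). Being 1 sequence, they are 1 measurement, so neither count stands far from the share over all tested miRNAs. Their calls ended without recipient library 1 (0.0515, let-7a-1-3p) or PBS library 3 (0.0512, let-7c-2-3p) and with DESeq2 (0.119 and 0.0822).

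The remaining calls were small or uneven. miR-339-5p rose 1.28-fold, from 786 to 862 CPM in PBS libraries to 1015 to 1131 CPM (adjusted p = 0.00221), and held without any 1 library. miR-338-5p, known from oligodendrocytes, rose 1.80-fold (adjusted p = 0.0390) and passed without PBS library 1 only, at 0.0529 to 0.201 without each other library, 0.367 with DESeq2, 0.100 with no filter and 0.0577 with upper-quartile scaling. miR-340-5p rose 1.14-fold (adjusted p = 0.0368) and its call ended without any 1 of the 6 libraries (0.0538 without PBS library 1, 0.0892 without PBS library 2, 0.0973 without PBS library 3, and 0.0515, 0.0529 and 0.152 without recipient libraries 1, 2 and 3), and with DESeq2 (0.119) or upper-quartile scaling (0.196). miR-125b-5p, which shares its seed with miR-351-5p, fell 1.16-fold (adjusted p = 0.00914, but 0.0541 without PBS library 3 and 0.0586 without recipient library 1). The falls of miR-320-3p (1.20-fold, adjusted p = 0.0107) and miR-378d (1.19-fold, 0.0288) ended without PBS library 2 (0.0663 and 0.0680) or recipient library 1 (0.0515 and 0.0606), and that of miR-378d also without PBS library 1 (0.0899) or recipient library 2 (0.104). With DESeq2 these gave 0.0501 and 0.0840. miR-3068-5p fell 1.41-fold (adjusted p = 0.0404), a call that ended without PBS library 1 or 2 (0.0906 and 0.154) or recipient library 1 or 2 (0.0750 and 0.161) and with DESeq2 (0.288). miR-3968 fell 1.30-fold (adjusted p = 0.0419), which ended without PBS library 2 or 3 (0.100 and 0.202) or recipient library 1 or 3 (0.206 and 0.0871) and with DESeq2 (0.312). With library size alone the falls of miR-125b-5p (0.0679), miR-320-3p (0.0686), miR-378d (0.128), miR-3068-5p (0.0747) and miR-3968 (0.0981) did not pass. In all, 27 of the 49 calls held without any 1 of the 6 libraries, among them 12 of the 13 of at least 2-fold. Both counts include miR-451a, which was tested through the recipient libraries alone.

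The content of the EVs given was known from 1 library, with no replicate. In serum Con A EVs, miR-148a-3p held 426086 CPM and miR-122-5p 392037 CPM, together 81.8% of the miRNA reads, against 21.96% in serum EVs of saline-injected mice. miR-192-5p followed at 34258 CPM, then miR-486a-5p at 9109, miR-486b-5p at 9082 and miR-451a at 7631 CPM. Serum saline EVs held more of the red cell miR-451a, at 54704 CPM, and less of miR-192-5p, at 17157 CPM. Among these leading miRNAs of the EVs the recipients moved both ways: miR-148a-3p and miR-122-5p rose and miR-451a had reads in recipients alone of these 2 groups, while miR-192-5p fell.

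Set against the level in cells that received RAW saline EVs, which are in neither group, 5 tested miRNAs were at least 8 times higher in serum Con A EVs. Of these miR-148a-3p and miR-122-5p rose, miR-451a was in the table of tested miRNAs through the recipient libraries alone, miR-192-5p fell, and miR-223-3p, a granulocyte miRNA, did not pass, with 25.2 to 35.6 CPM in PBS libraries and 19.7 to 34.2 CPM in the others. Of 14 miRNAs at 1 to 8 times the cell level 2 rose and 3 fell, and of 210 under it 13 rose (6.19%) and 27 fell (12.9%). miR-22-3p, at 7066 CPM in the EVs, and miR-194-5p, at 1888 CPM, were among the falls. Of the 20 most abundant miRNAs of the EVs, 18 were tested, and 5 rose (27.8%, beside 7.86% of all tested miRNAs), 4 fell (22.2%, beside 13.5%) and 9 did not pass. The rises include miR-451a. At the other end 44 tested miRNAs had 0 reads in the EV library, which allows up to 8.97 CPM. Of these 4 fell, with miR-450b-5p and miR-221-5p among them. Another 3 rose, with miR-9-5p and miR-92a-1-5p among them, and miR-92a-1-5p did not pass the filter once the recipient libraries were left out. The share called, 15.9%, was near that of all tested miRNAs, 21.4%.

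Set against the level in the 1 EV library, the size of the rise varied between the miRNAs named here. The figures compare relative levels, have no interval and cover named miRNAs that were higher in recipients. Per 1000 CPM in the EVs, the mean level in recipients exceeded that in PBS cells by 0.620 CPM for miR-148a-3p and 0.453 CPM for miR-122-5p. The same figure was 1.86 CPM for miR-486a-5p, 2.08 CPM for miR-486b-5p and 8.83 CPM for miR-451a. For miR-126a-3p, at 3054 CPM in the EVs, it was 58.2 CPM, and for miR-25-3p, at 4688 CPM in the EVs and called higher, 109 CPM. PBS cells already expressed miR-126a-3p and miR-25-3p, at means of 592 and 4042 CPM. Whether the reads of these miRNAs lay in EVs on or in the cells, came from the cells' own genes or had another source was not tested.

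**Figure D4:**
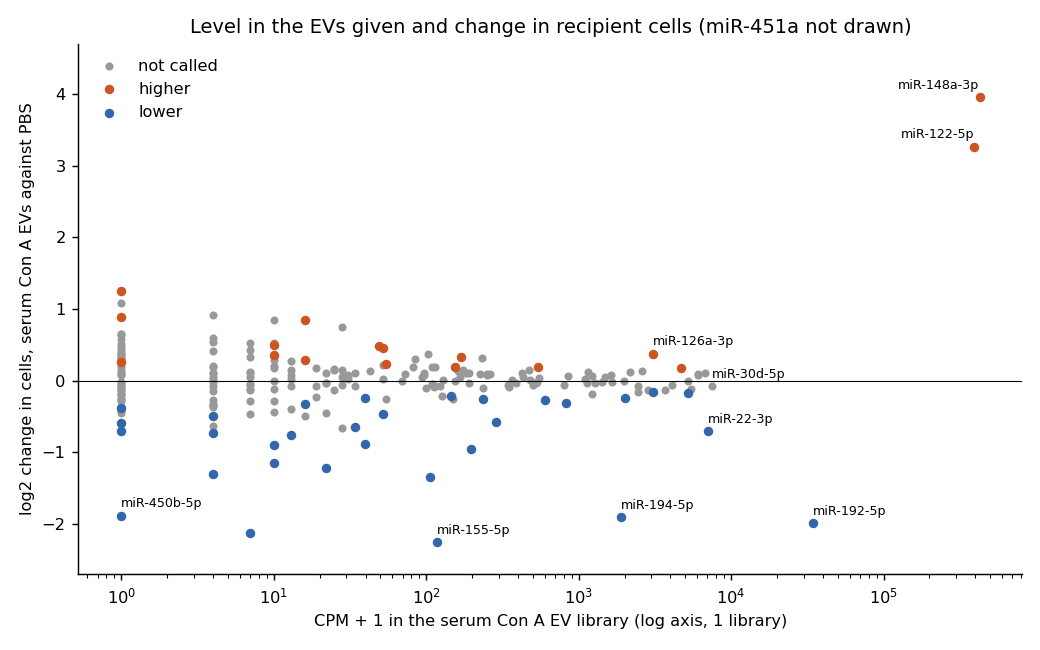
Log2 change in recipients of serum Con A EVs against PBS cells (y axis) by CPM plus 1 in the single library of serum Con A EVs (x axis, log scale), 1 point per tested miRNA except miR-451a, with calls in colour. miR-148a-3p and miR-122-5p lie at the upper right, whereas miR-192-5p and miR-194-5p, also carried by the EVs, lie under 0 and miR-450b-5p fell at 0 reads in the EVs.

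The RAW Con A EV library also held miR-122-5p and miR-148a-3p, at 208038 and 77074 CPM, against 3528 and 19078 CPM in RAW saline EVs. In PBS cells of the same line their means were 18.8 and 17.6 CPM. Where the reads in the RAW Con A EV library came from was not tested. Cells given RAW Con A EVs had 71.5 ± 17.1 CPM of miR-122-5p and 57.8 ± 32.2 CPM of miR-148a-3p (mean ± SD, n = 3). In direct contrasts in the same fit, which share the recipient libraries with the comparison above, 80 miRNAs (34.9%) differed from cells given RAW Con A EVs, 41 higher (17.9%) and 39 lower (17%), and 95 (41.5%) from cells given RAW saline EVs, 51 higher (22.3%) and 44 lower (19.2%). miR-122-5p was higher, at log2 differences of 1.44 and 2.41, and so was miR-148a-3p, at 2.27 and 2.57, in that order (edgeR's test, adjusted p = 6.27e-06, 2.53e-09, 3.66e-09 and 2.72e-10).

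Several of the larger falls also passed against cells given RAW EVs. miR-155-5p was at 1121 ± 40.4 CPM in cells given RAW Con A EVs and 1424 ± 43.0 CPM in cells given RAW saline EVs, so that recipients of serum Con A EVs were lower by log2 differences of −2.36 and −2.71 (adjusted p = 7.99e-19 and 3.42e-21). For miR-192-5p the differences were −2.05 and −2.24 (adjusted p = 2.71e-12 and 1.21e-13), and for miR-450b-5p −1.95 and −2.05 (adjusted p = 6.32e-09 and 7.59e-10 by edgeR's test). miR-222-3p was lower by smaller amounts, −0.51 and −0.78 (adjusted p = 1.07e-05 and 1.07e-09). Other falls did not pass. Against cells given RAW Con A EVs, miR-671-5p and let-7c-5p had adjusted p of 0.122 and 0.176. miR-221-5p stood at 469 ± 35.1 and 512 ± 33.6 CPM in the RAW EV groups, with differences of 0.12 and −0.04 (adjusted p = 0.495 and 0.799). For miR-222-5p these were 0.02 and 0.11 (adjusted p = 0.984 and 0.799). Set against RAW Con A EV recipients, miR-155-3p was lower, at −1.42 (adjusted p = 1.21e-04), and its difference from cells given RAW saline EVs, −0.70, missed the threshold (adjusted p = 0.0678). Among the rises, miR-130b-5p was higher by 0.67 and 1.04 (adjusted p = 1.99e-07 and 2.61e-11). miR-7a-5p and miR-7b-5p were lower than in both RAW EV groups, miR-7a-5p by −0.83 and −0.86 (adjusted p = 1.32e-10 and 5.02e-11).

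The arms of 57 hairpins could be tested for unequal change, and 0 passed edgeR's test at an adjusted p of 0.05, with 7 (12.3%) at an unadjusted p under 0.05. The smallest p was that of miR-3068, whose ratio of 5p to 3p reads was 1.63 to 2.64 in PBS libraries and 0.865 to 1.27 in the others (adjusted p = 0.0905). For miR-27b the ratio was 0.00586 to 0.00758 against 0.00479 to 0.00511, and for miR-503 4.00 to 4.57 against 2.47 to 2.69 (adjusted p = 0.124 and 0.332). The ratios did not overlap between the groups in 12 of the 57 hairpins (21.1%), these 3 included. Without recipient library 3, miR-3068 and miR-361 passed (both adjusted p = 0.0356).

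Members of 1 seed family did not always move together. Both tested miRNAs with the seed of miR-221-3p fell, as did both with the seed of miR-7a-5p, and 3 of 4 with the seed of miR-17-5p rose. With the seed of miR-351-5p, 2 of 3 fell. Of the 5 tested miRNAs with the seed of miR-322-5p, a family that arrests the cell cycle and includes miR-15 and miR-16, 0 passed, although miR-322-3p from the same hairpin fell. miR-450a-5p and miR-450b-5p, neighbours in the cluster, differ in the last bases of the seed, and both fell.

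Markers of other cell types moved with the comparison in part. Of 8 hepatocyte miRNAs 5 were tested, and 2 rose (miR-122-5p and miR-148a-3p) and 2 fell (miR-192-5p and miR-194-5p), so that their summed level was 1319 to 1689 CPM in PBS libraries and 886 to 1085 CPM in the others. miR-101b-3p did not pass (log2 change −0.0012, adjusted p = 0.997 by edgeR's test), and miR-122-3p and miR-802-5p were at 0. The 7 erythrocyte strands summed to 0 to 3.24 CPM in PBS libraries and 98.6 to 131 CPM in recipients of serum Con A EVs, with the 3p strands of both miR-486 hairpins at 0. Endothelial and platelet strands summed to 609 to 657 CPM and 774 to 845 CPM, with 1 rise of 2 tested. Of the 2 tested lymphocyte, 2 epithelial and islet, 3 stromal and 1 tested neuronal miRNAs 0 passed, and of the muscle list 0 could be tested. The neuronal miR-9-5p, counted above with the inflammation-induced miRNAs and not here, rose 1.19-fold. The part of other cells' RNA in these results was not tested.

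The tested miRNAs of the myeloid and blood cell list did not pass. Of these 4, 0 were called, with a median log2 change of 0.05. Among them miR-223-3p and miR-342-3p were scarce, with 25 and 33 reads over the PBS libraries and 29 and 41 over the others. For these a modest change could be missed. miR-155-5p and miR-21a-5p, counted above with the inflammation-induced miRNAs and not here, were called lower (log2 changes −2.26 and −0.18). miR-142a-3p, made in all blood lineages, stood at 2181, 2465 and 2293 CPM in PBS libraries and at 2158, 2308 and 2311 CPM in the others, with overlap (log2 change −0.04, adjusted p = 0.750, and 0.04 with library size alone). Also without calls were the miR-15 and miR-16 (0 of 7), miR-29 (0 of 3), miR-30 (0 of 10) and miR-181 (0 of 4) families. The 712 names that were not tested held 1634 reads over the PBS libraries and 1888 over the recipients of serum Con A EVs, at most 54 for 1 name.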

How the data were processed

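Small RNA libraries of RAW264.7 cells were made with a NEBNext kit and read on an Illumina MiSeq, 51 bp from 1 end, per the labels' protocols. The authors deposited raw counts, whole reads per mature mouse miRNA name. They also deposited signal values for this comparison, which are the raw counts times 1 factor per library (0.788 to 1.36) for the 324 miRNAs with more than 10 reads in total, as tested on the values. The genome build, aligner and miRNA annotation were not given in the sources used here, so no coordinates are printed. Per the submitters' processing notes, the authors used edgeR, with no version named. In the tables used, 0 columns matched no sample.

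The counts were filtered with filterByExpr of edgeR 4.0.16 (R 4.3.3), scaled by TMM and fitted in 1 quasi-likelihood model of all 12 cell libraries. The 2-sided p-values were adjusted by Benjamini-Hochberg over all 229 tested miRNAs, with a threshold of 0.05. Unequal change of hairpin arms was tested with edgeR's diffSpliceDGE. Alternatives used other scalings, filters and libraries, and DESeq2 1.42.0. The code was tested on simulated data. EV libraries, 1 per preparation with 114791 to 334285 reads, were described in CPM without a test. Libraries of a group differed by more than sampling noise, with a chi-square of 1.84 to 4.32 per degree of freedom.

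The members and lists were chosen with earlier results of these data known. Any call may be named. Values in each library are given for calls of at least 2-fold and for miRNAs with at least 10 reads in 1 group and 0 in the other. They are also given for some of the 5 most abundant miRNAs, the other arms of all these, and members of the inflammation, hepatocyte, erythrocyte, chromosome X cluster and miR-221 and miR-222 lists. The rest of these are given by means, summed reads or log2 changes, or are left out. Further calls are given with their values where their group is described, and miR-148b-3p, miR-152-3p and miR-301a-5p were named after their values were seen. Samples that share a replicate number were not paired: the correlations of their deviations were −0.18, 0.16 and −0.04.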

Additional observations from a re-analysis of the deposited data

How the results depend on the processing

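Of the 49 calls 47 were shared with RLE scaling (48 called), 44 with upper-quartile scaling (50, 13 higher and 37 lower), 39 with library size alone (54, 33 higher and 21 lower), 40 with no filter (44), 46 with a filter of 10 CPM (49), 47 with only the 6 libraries (48), 45 with the authors' scaling, added after seeing the data (52), and 33 with DESeq2 (35, 11 higher and 24 lower), with 0 shared calls of opposite sign. With the replicate number as a block 50 were called, 19 higher and 31 lower, and 49 were shared. Since the numbers were not shown to pair the libraries, no result rests on it. Without 1 library 33 to 48 were called, 10 to 19 higher and 19 to 29 lower, and 0 to 2 hairpins had arms that changed unequally. Of 930 recomputed log2 changes 7 were reversed, all of miRNAs that were not called: with library size alone miR-142a-3p (0.039), miR-99a-5p (0.016) and let-7f-5p (0.075), let-7f-5p with only the 6 libraries (0.014), and, without 1 library in turn, miR-142a-3p (−0.081 to 0.00616) and let-7f-5p (−0.022 to 0.031). A minimum of 5 reads in place of 10 gave 6 miRNAs with reads in recipients only (adding miR-144-3p, miR-181b-2-3p and miR-760-3p) and 3 with reads in PBS cells only (adding miR-1938 and miR-212-3p), since fewer reads were asked for. The causes of the other shifts were not tested. A cargo ratio of 4 in place of 8 gave 8 tested miRNAs, 4 higher and 3 lower. Depth limits the scarce strands, since a count of 0 allows up to 8.62 to 13.5 CPM in these 6 libraries.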
